A study of Mus musculus with 4 samples.

Results

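The cells described here are tissue-resident macrophages of mouse fetuses in the libraries labelled E18.5, and they carry the transcripts of Kupffer cells, the macrophages of the liver sinusoids. They were chosen from measured counts. A cell was included when it had 500 or more detected genes, 10 or more UMIs (unique molecular identifiers, each standing for 1 captured transcript) over C1qa, C1qb and C1qc, and 1 or more UMIs over Csf1r, Adgre1 and Marco. A further condition was that α- and β-globin transcripts made up under 15% of its UMIs. There were 648 such cells among 43351 cells in 4 libraries, 266 of them from the library of the heterozygous mother and 382 from that of the null mother.

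All fetuses in the series were labelled Cyp27a1-/-. By that label they lack sterol 27-hydroxylase, a mitochondrial enzyme that makes 27-hydroxycholesterol and acts in bile acid synthesis. They were taken at E14.5 or E18.5 and had been carried either by a Cyp27a1+/- female, here the heterozygous mother, or by a Cyp27a1-/- female, here the null mother. By these labels, the comparison addresses what the genotype of the mother changes in a fetus that cannot make the enzyme itself. Each of the 4 groups was 1 library, and the labels do not say how many fetuses went into it. No fetus labelled as having the enzyme is among the groups. There was thus no test between groups, and every interval below covers counting error only, at a level of 95%.

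Kupffer cells arise before birth from yolk sac and fetal liver precursors that settle in the sinusoids. They clear particles, microbes and dying cells from the blood and recycle haem iron, and the lipid-sensing receptor LXRα, encoded by Nr1h3, is needed for their identity. The fetal liver is also the main site of blood formation before birth. There, macrophages sit at the centre of islands of maturing red cells, hold them through adhesion molecules such as VCAM1, and engulf the nuclei that the red cells expel.

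The libraries labelled E18.5 go against their tissue label. Of all UMIs, the alveolar surfactant transcript Sftpc took 1.53 and 0.669 counts in each 1e6 (CPM) with the heterozygous and the null mother, while Alb, made by hepatocytes, took 2905 and 8344 CPM. In the E14.5 libraries the order was the opposite, with Sftpc at 280 and 1444 CPM and Alb at 0.574 and 0.469 CPM. With the heterozygous mother, the E18.5 library also carries a wild-type tag in its title against its genotype label, where that of the null mother carries a KO tag. Genotype of the fetus, litter and preparation cannot be told apart from the genotype of the mother between the E18.5 libraries. The cells of the heterozygous mother were nearly all male, whereas the other library held both sexes. Of the macrophages, 114 of the heterozygous mother were called male and 0 female, and 113 of the null mother were called male and 110 female. The rest were not called, having either no UMIs of Xist and Y-linked genes or UMIs of both. Cyp27a1 transcripts were counted in every library, at 18.7 to 38.5 CPM, but such counts do not check the genotype, because the deleted part of the gene is not given in the sources used here. The macrophages held 35.2 and 36.8 CPM of it. The E18.5 libraries shared 164 cell barcodes, and none of these belonged to a macrophage in both.

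The macrophages of the null mother were read more deeply. Their median was 5416.5 UMIs and 2002.5 genes, against 3592 UMIs and 1498.5 genes with the heterozygous mother. Summed over cells this gave 1305829 UMIs with the heterozygous and 2770498 UMIs with the null mother. The share of mitochondrial UMIs was alike, with medians of 3.75% and 3.44% in that order. A doublet caller marked 25 (9.40%) and 65 (17%) of them as probable pairs of cells, against 4.12% and 6.40% of all cells in their libraries. At the limit of the rule, 23 macrophages with 10 to 12 C1q UMIs held 649 CPM of Cd5l and 616 CPM of Marco, and 24 cells just outside it, with 7 to 9 C1q UMIs, held 319 and 535 CPM. S100a8, a neutrophil granule transcript, stood at 16175 CPM in the former and at 25801 CPM in the latter.

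The genes used by the rule were high, which only describes the choice. C1qa, C1qb and C1qc, the chains of the complement component C1q, were at 4489, 4934 and 3424 CPM with the heterozygous mother and at 3739, 4701 and 3313 CPM with the null mother. Csf1r, the receptor for the macrophage growth factors CSF1 and IL-34, was at 984 and 879 CPM. Adgre1, which encodes the surface antigen F4/80, was at 494 and 565 CPM. Transcripts that the rule did not use bear on the label directly. Cd5l, a secreted scavenger protein of Kupffer cells and other tissue macrophages, was at 2160 CPM with the heterozygous and 2370 CPM with the null mother. Clec4f, a lectin found on Kupffer cells in the mouse, was at 814 and 231 CPM. Vsig4, a receptor for complement fragments, was at 309 and 151 CPM, and Timd4, a receptor for phosphatidylserine on dying cells, was at 346 and 328 CPM. The transcription factor genes Spic, which acts in iron-recycling macrophages, and Nr1h3 were at 347 and 301 CPM and at 182 and 200 CPM.

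The 4 genes below carry most of what follows: Cd5l, which differed little between the mothers, Clec4f and Vsig4, which were lower with the null mother, and Marco, which was higher. In GRCm38 (mm10, GENCODE M21), Clec4f lies at chr6:83644542-83656187 and Vsig4 at chrX:96247203-96293438, both on the minus strand. Marco lies at chr1:120474538-120505024 on the minus strand, and Cd5l at chr3:87357881-87371073 on the plus strand. The bases just before each gene, outside its annotated transcripts, are printed 5′ to 3′ on the strand of the gene from RefSeq sequence of GRCm38.p6. Capitals mark GAGGAA, the core bound by the macrophage factor PU.1, and TGCTGA, the core of the MAF recognition element, with either motif read on both strands.
Clec4f, chr6:83656188-83656366, minus strand: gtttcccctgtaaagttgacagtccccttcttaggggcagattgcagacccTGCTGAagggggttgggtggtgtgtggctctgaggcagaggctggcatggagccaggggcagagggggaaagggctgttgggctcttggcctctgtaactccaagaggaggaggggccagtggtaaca
Vsig4, chrX:96293439-96293688, minus strand: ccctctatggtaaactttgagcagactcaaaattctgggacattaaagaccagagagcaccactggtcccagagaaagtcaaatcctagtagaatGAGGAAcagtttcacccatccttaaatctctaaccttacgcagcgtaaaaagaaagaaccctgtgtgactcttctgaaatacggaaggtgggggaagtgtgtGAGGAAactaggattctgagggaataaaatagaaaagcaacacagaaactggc
Marco, chr1:120505025-120505274, minus strand: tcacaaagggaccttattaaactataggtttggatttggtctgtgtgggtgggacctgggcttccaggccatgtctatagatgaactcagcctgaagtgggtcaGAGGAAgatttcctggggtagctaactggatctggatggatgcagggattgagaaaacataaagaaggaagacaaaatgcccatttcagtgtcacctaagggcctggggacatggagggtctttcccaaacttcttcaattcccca
Cd5l, chr3:87357631-87357880, plus strand: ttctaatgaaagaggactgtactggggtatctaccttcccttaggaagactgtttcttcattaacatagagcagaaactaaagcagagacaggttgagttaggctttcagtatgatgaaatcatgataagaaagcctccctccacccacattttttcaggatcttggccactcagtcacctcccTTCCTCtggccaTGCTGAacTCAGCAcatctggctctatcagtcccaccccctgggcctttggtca

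GAGGAA occurred 2 times before Vsig4, 1 time each before Marco and Cd5l, and 0 times before Clec4f. TGCTGA occurred 2 times before Cd5l, side by side on opposite strands, and 1 time before Clec4f. These motifs do not overlap one another, and 23.3% and 16.1% of 32851 RefSeq promoter windows of the same length hold them, the Clec4f window being shorter at 179 bases. Neither the direct repeat that LXR binds (0.0152% of promoters) nor the core of the interferon-stimulated response element (2.98%) was found in these windows. A match describes the letters only.

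Against the macrophages at E14.5, the identity of the E18.5 cells stood out. The same rule found 36 and 70 cells in the E14.5 libraries, with medians of 20730.5 and 18861.5 UMIs. Of 3681 measured genes, 337 (9.16%) were at 2 or more times the level in every pairing of E18.5 and E14.5 libraries, and 136 (3.69%) were lower by that margin. Of 14 measured genes on the Kupffer list, 13 were higher and 0 lower. Cd5l was at 1.31 and 0 CPM at E14.5, with the heterozygous and the null mother, and Vcam1 was at 1.31 and 22.8 CPM, against 1030 and 942 CPM in the E18.5 macrophages. Marco and Clec4f had 0 UMIs in both E14.5 libraries. Fcna, which encodes ficolin A, an initiator of the lectin pathway of complement, was at 52.6 and 49.6 CPM there and at 1607 and 1260 CPM at E18.5. Age, tissue and preparation cannot be told apart in this comparison.

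Among the genes that were higher at E14.5 were several of other macrophages, chosen after their values were seen. Fcrls, known from microglia, was at 903 and 847 CPM there and at 6.89 and 7.22 CPM in the E18.5 macrophages. F13a1, the coagulation factor XIII A chain, was at 1008 and 948 CPM against 67.4 and 58.1 CPM. Stab1, the scavenger receptor stabilin-1, was at 840 and 775 CPM against 96.5 and 69.7 CPM. Gas6, a bridge between dying cells and the receptors AXL and MERTK, was at 494 and 334 CPM against 46.7 and 18 CPM, so for all 4 of these genes the E18.5 libraries lay below both E14.5 libraries. Mertk and Axl themselves went the other way, at 176 and 153 CPM and 360 and 317 CPM at E18.5, against 46.0 and 51.0 CPM and 27.6 and 55.7 CPM at E14.5. S100a8, S100a9, Ngp, Camp and Lcn2, all of neutrophil granules or cytosol, were also far above E14.5, and their levels in the neighbouring blood cells are given below. The whole neutrophil list summed to 20388 and 26566 CPM in the macrophages, 41191 and 52295 CPM in monocytes, 18493 and 26373 CPM in B cell precursors and 85614 and 75859 CPM in all other cells.

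Siglecf and Car4, markers of alveolar macrophages, were at or near 0. Siglecf, a lectin of alveolar macrophages and eosinophils, was at 2.30 and 2.17 CPM, from 3 and 6 UMIs, and Car4 had 0 UMIs. Of the 13 genes on the alveolar list, 7 and 6 had 0 UMIs in the library of the heterozygous and of the null mother, and the list summed to 499 CPM in both. In the E14.5 cells it summed to 19.7 and 16.1 CPM, and all 3 of its genes measured in that comparison were higher at E18.5. Most of that sum came from Fabp4 (210 and 204 CPM), a fatty acid carrier that endothelium also expresses, Ear2 (162 and 162 CPM), an eosinophil-type ribonuclease, and Chil3 (113 and 105 CPM), a lectin that neutrophils also make. The summed list of lung epithelium and mesenchyme was at 6.13 and 12.3 CPM. The alveolar list was low in the E14.5 cells too, whose libraries held Sftpc. Low values of it thus do not tell lung from liver macrophages here.

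**Figure D1:**
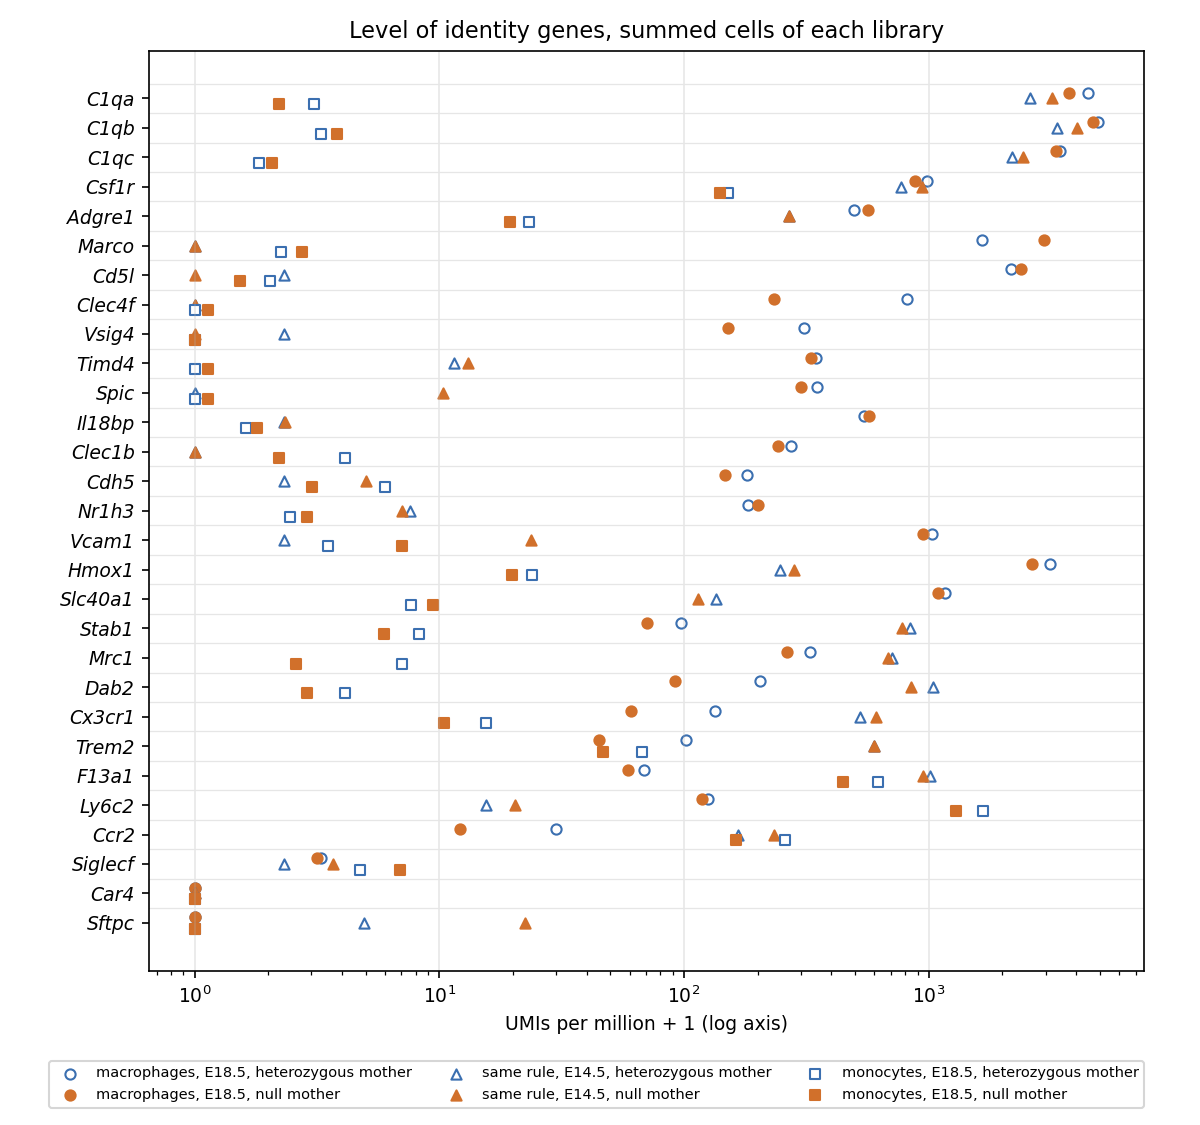
Level of identity genes in cells summed by library, as CPM plus 1 on a log axis. Circles are the E18.5 macrophages, triangles the E14.5 cells that met the same rule and squares the E18.5 monocytes. Open symbols are the heterozygous and filled symbols the null mother. From Marco to Slc40a1 the circles lie right of both other kinds of cell, and from Stab1 to F13a1 the triangles lie right of the circles.

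Monocytes of the same libraries, the blood cells most like macrophages, were taken as cells with Csf1r and at least 3 UMIs over Ly6c2, Ccr2 and F13a1, and with at most 2 C1q UMIs. There were 502 and 690 of them, with medians of 8686 and 9673.5 UMIs. Of 7248 measured genes, 641 (8.84%) were 2 or more times higher in macrophages in both libraries and 490 (6.76%) were lower. On the Kupffer list 13 of 14 measured genes were higher, on the scavenger and efferocytosis receptor list 14 of 14, on the list of haem and iron recycling 14 of 17, and on the list of interferon response 12 of 16. Hmox1, which encodes the haem-degrading enzyme haem oxygenase 1, was at 3136 and 2650 CPM in macrophages and at 22.9 and 18.9 CPM in monocytes. Slc40a1, the iron exporter ferroportin, was at 1162 and 1087 CPM against 6.66 and 8.43 CPM. Both were also above the E14.5 cells, which held 245 and 281 CPM of Hmox1 and 134 and 113 CPM of Slc40a1.

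Genes of monocytes were lower in macrophages, which for Ly6c2, Ccr2 and F13a1 describes only how the monocytes were chosen. Ly6c2, a surface antigen of inflammatory monocytes, was at 125 and 117 CPM against 1661 and 1290 CPM. Ccr2, the receptor that draws monocytes out of the marrow, was at 29.1 and 11.2 CPM against 258 and 162 CPM. Of 9 measured genes on the monocyte list 7 were lower and 0 higher, the genes of the choice included, and of 18 measured genes of the G2 and M phases of the cell cycle 15 were lower. Mpo, myeloperoxidase of early granules, was at 191 and 398 CPM against 1789 and 3070 CPM.

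The macrophages were not uniform. Clustering of the 648 cells gave 7 subgroups, whose leading genes describe them and are no test. Subgroup 1 (265 cells, median 4108 UMIs) was led by Clec4f, Neurl3 and Trim26, with Vcam1 also among its leading genes, and subgroup 2 (129 cells, median 1590 UMIs) had Ccl24 and Clec4f among its leading genes at a lower depth. Together these were 394 cells with 1 called doublet. The other 5 subgroups, 254 cells with 89 called doublets (35.0%), were led by genes best known from other cells. Subgroup 3 (95 cells) was led by the azurophil granule genes Ctsg, Mpo, Prtn3 and Elane, and subgroup 4 (60 cells, 43 of them called doublets) by the later granule genes Ngp and Ltf. Subgroup 5 (49 cells) was led by B lymphoid genes such as Ebf1 and Cd79a and had a median haemoglobin share of 6.14%. Subgroup 6 (28 cells, 21 called doublets, median 19878 UMIs) was led by Cited4 and included the red cell factor Klf1 among its leading genes. Subgroup 7 (22 cells) was led by Fabp4 and Sparc, genes of endothelium and mesenchyme.

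The Kupffer list was present in each subgroup, at a summed 11409 CPM in subgroup 1, 9587 CPM in subgroup 2, 4108 CPM in subgroup 3, 4137 CPM in subgroup 4, 7243 CPM in subgroup 5, 1553 CPM in subgroup 6 and 4669 CPM in subgroup 7. In monocytes it was at 314 and 305 CPM, so even subgroup 6 lay above them. The erythroid list summed to 80771 CPM in subgroup 5 and 46084 CPM in subgroup 6, and the neutrophil list to 127804 CPM in subgroup 4. Subgroups 1 and 2 held 183 macrophages of the heterozygous and 211 of the null mother, and subgroups 3 to 7 held 83 and 171. Since Clec4f and Ccl24 lead subgroups and also differed between the libraries, no comparison is drawn from the sizes. Whether the genes that lead subgroups 3 to 7 come from other cells in the same droplet or from the macrophages themselves was not tested, and 15 of the 95 cells of subgroup 3 were called doublets. Results between mothers are also given for subgroups 1 and 2 alone, a choice made after the subgroups had been seen.

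**Figure D2:**
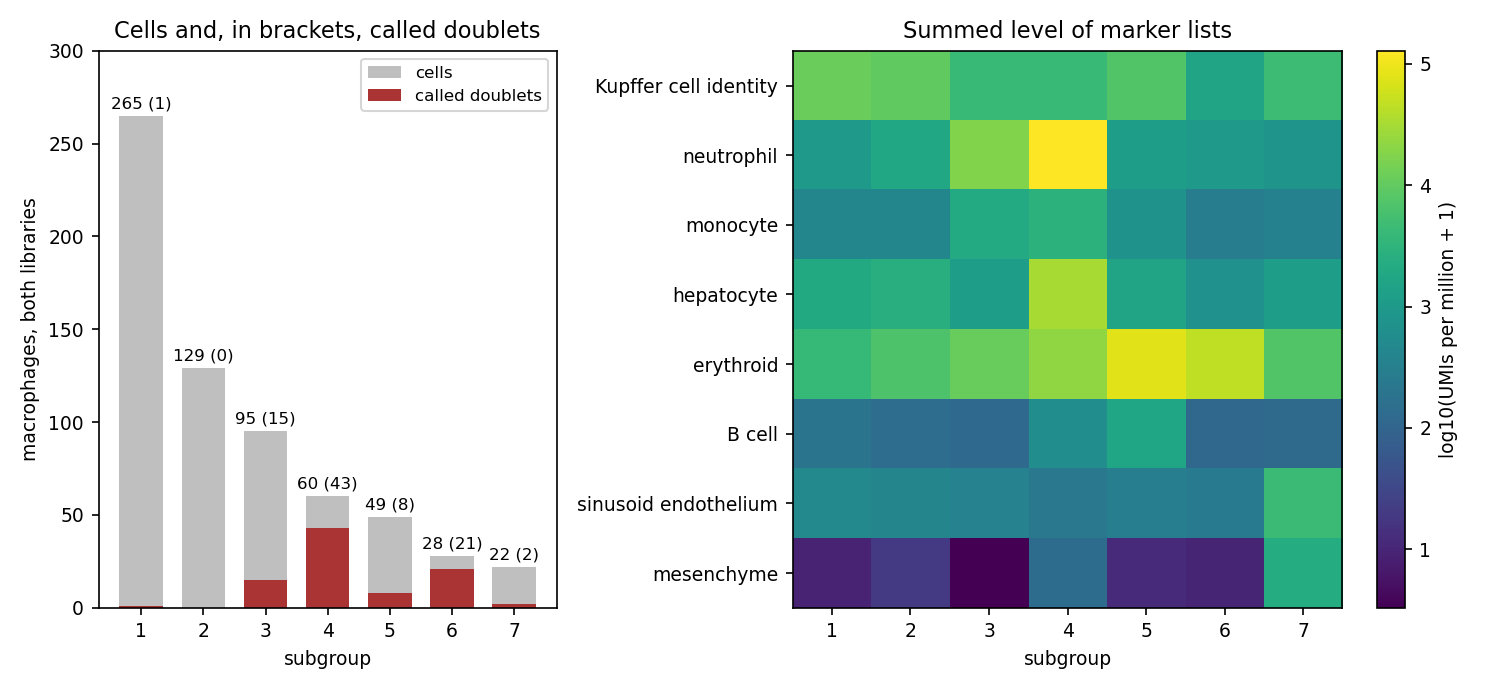
Left, number of macrophages (both libraries together) in each of the 7 subgroups, with those called doublets in red and in brackets. Right, summed level of marker lists in each subgroup, as log10 of CPM plus 1. Subgroups 1 and 2 hold 1 of 90 called doublets, and the bright squares of the neutrophil list in subgroup 4 and of the erythroid list in subgroups 5 and 6 mark genes best known from neutrophils and red cells.

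Macrophages made up 1.56% (1.38 to 1.76) of the 17034 cells of the heterozygous mother and 2.31% (2.09 to 2.55) of the 16517 cells of the null mother. The ratio of the shares was 1.48 (1.26 to 1.74). Counted only among cells with 500 or more genes and under 15% haemoglobin, the shares were 2.53% and 3.12%, with a ratio of 1.24, and for subgroups 1 and 2 over all cells the ratio was 1.19. Without called doublets it was 1.39, among male cells 1.38, and with every cell thinned to 3000 UMIs 1.83. The macrophages were the larger share with the null mother under each of these counts, by margins from 1.19 to 1.83. For subgroups 1 and 2 the shares were 1.07% (0.925 to 1.24) and 1.28% (1.11 to 1.46), intervals that overlap. No replicate library shows how much such shares vary between litters or preparations.

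Between mothers, most measured genes of the macrophages lay within 1.5 times. Of 5097 genes with 50 or more UMIs in the library with the higher level, 414 (8.12%) were at 1.5 or more times the level with the null mother, and 129 (2.53%) were lower by that margin. The numbers in the 2 directions are not on an equal footing, because 50 UMIs are 38.3 CPM with the heterozygous and 18 CPM with the null mother, so that a gene between these levels was counted only if it was higher with the null mother. With a minimum of 38.3 CPM for both, chosen after seeing the data, 3809 genes were measured, of which 160 (4.2%) were higher and 129 (3.39%) lower. Above 1 were 3155 of the 5097 genes and 1867 of the 3809. Among the 904 of these genes that stood 2 or more times above all other cells in both libraries, 38 (4.2%) were higher and 57 (6.31%) lower. In subgroups 1 and 2 alone, 2332 genes were measured, of which 164 (7.03%) were higher and 74 (3.17%) lower, and with a common minimum 102 and 74 of 1968. Of the 65 higher genes that were also measured in these subgroups 48 were past the margin there, and of 52 lower genes 34.

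Clec4f had the lowest log2 ratio among the 904 genes that mark the macrophages. It was at 814 CPM (1063 UMIs) with the heterozygous and 231 CPM (641 UMIs) with the null mother, 3.52 times (3.19 to 3.89) higher with the heterozygous mother. Subgroups 1 and 2 held 1379 and 475 CPM of it, and among male macrophages the ratio of null over heterozygous was 0.249. The same held cell by cell: after thinning each cell to 1500 UMIs, which left 226 and 345 macrophages, Clec4f was found in 49.6% (42.9 to 56.3) and 24.3% (19.9 to 29.2) of them. Without thinning it was found in 67.3% and 44.2%. In B cell precursors, which do not make it, it was found in 0.306% and 0.168% of thinned cells.

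Vsig4 followed the same direction, at 309 and 151 CPM, with a ratio of 0.486 (0.423 to 0.559), with 509 and 277 CPM in subgroups 1 and 2. It was found in 28.3% and 15.9% of thinned macrophages. Id1, a target of the BMP signals that sinusoid cells send to Kupffer cells, was at 277 and 174 CPM, with a ratio of 0.629 (0.548 to 0.723). These 3 were the members of the Kupffer list past the margin, all lower with the null mother. The rest stood nearer to 1: the ratio was 0.949 (0.847 to 1.06) for Timd4, 1.10 (1.05 to 1.15) for Cd5l, 1.05 (0.961 to 1.15) for Il18bp, which encodes a decoy for interleukin-18, and 1.10 (0.939 to 1.28) for Nr1h3. The median log2 ratio over the 14 measured genes was -0.18, beside 0.06 over all measured genes and -0.07 over the 904 that mark the macrophages. In subgroups 1 and 2 the median of the list was -0.00495 with 7 genes above and 7 below 1. Among male macrophages it was 0.0829, while Clec4f, Vsig4 and Id1 stayed under 1 there, with ratios of 0.249, 0.342 and 0.587.

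Marco, a scavenger receptor for bacteria and particles, went the other way. It was at 1648 and 2962 CPM, with a ratio of 1.80 (1.71 to 1.89), with 2689 and 5381 CPM in subgroups 1 and 2 and a ratio of 2.41 among male cells. Marco is 1 of 6 genes in the rule, so its level is a description. Monocytes held 1.2 and 1.7 CPM of it and B cell precursors 1.18 and 3.12 CPM.

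**Figure D3:**
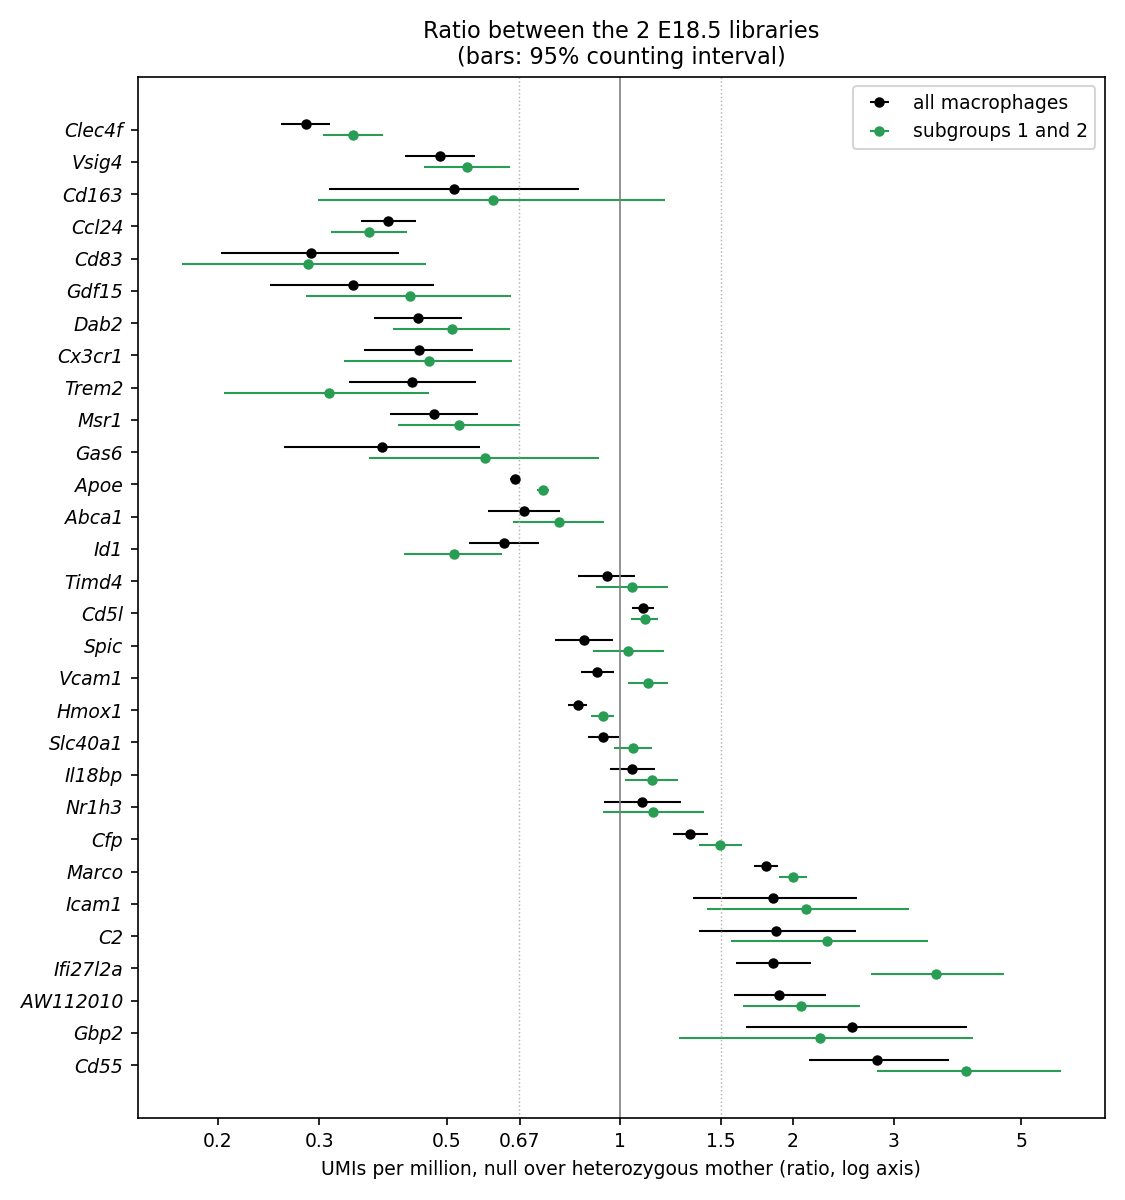
Ratio of the level with the null over that with the heterozygous mother, on a log axis, for named genes in all 648 macrophages (black) and in subgroups 1 and 2 (green), with 95% counting intervals. Dotted lines stand at 1.5 in either direction. Clec4f, at 0.284, lies farthest left with Cd83 at 0.290, the genes from Timd4 to Nr1h3 cluster around 1, and the black points from Marco to Cd55 lie at 1.80 or above.

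Of the receptors for uptake a few were lower with the null mother, and Marco, described above and not on this list, was higher. On the list of scavenger and efferocytosis receptors, 13 of 14 measured genes had a ratio under 1, 4 of them past the margin, and the median log2 ratio was -0.36. Over all measured genes 1942 of 5097 were under 1. With the common minimum all 14 genes of the list stayed, and 1942 of 3809 genes were under 1. Of the 904 genes that mark the macrophages 534 were under 1, with a median log2 ratio of -0.07. Msr1, the class A scavenger receptor for modified lipoproteins, was at 195 and 92.4 CPM, with a ratio of 0.475 (0.398 to 0.567). Gas6 was at 46.7 and 18 CPM, and Colec12, a scavenger collectin, at 42.1 and 20.6 CPM. Cd163, the receptor for haemoglobin bound to haptoglobin, had 33 and 36 UMIs and fell short of the minimum, with 25.3 and 13 CPM. The exception was Stab2, a hyaluronan receptor also made by sinusoidal endothelium, at 55.1 and 79.4 CPM. In subgroups 1 and 2 the median was -0.14, with 7 of 12 measured genes under 1, and in macrophages with few neutrophil and hepatocyte UMIs it was 0.00541. Msr1 was at 267 and 141 CPM in subgroups 1 and 2, with a ratio of 0.526. Colec12 was at 65.7 and 34.6 CPM there and fell short of the minimum.

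Several other genes of the macrophages were lower by a similar factor. Ccl24, the chemokine eotaxin-2, was at 546 and 216 CPM, with a ratio of 0.396 (0.355 to 0.442), and was found in 42.5% and 25.5% of thinned macrophages. Dab2, an endocytic adaptor, was at 204 and 91.0 CPM, with a ratio of 0.447 (0.374 to 0.532). Trem2, a lipid-sensing receptor, was at 101 and 44.0 CPM, and Cx3cr1, the fractalkine receptor, at 133 and 59.6 CPM. Cd83, a surface protein of activated cells, was at 65.9 and 19.1 CPM, and Gdf15, a stress-induced cytokine, at 70.5 and 24.2 CPM. All 6 were lower in subgroups 1 and 2 as well, with ratios from 0.286 for Cd83 to 0.510 for Dab2. In male macrophages their ratios ran from 0.306 for Cd83 to 0.713 for Trem2. Of the 22 measured genes of other surface receptors, 3 were lower past the margin, Trem2, Cx3cr1 and the interleukin-10 receptor gene Il10ra, and the median log2 ratio was -0.17. It was 0.0253 in subgroups 1 and 2, with 10 of 17 measured genes above 1, 3 lower and 1 higher past the margin.

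Most transcription factors of macrophages lay within the margin, somewhat under 1. Of 21 measured, 15 were under 1, 3 were lower past the margin (Id1, Cebpa and Cebpb) and 1 was higher, Pparg, at 11.5 and 24.2 CPM, below the common minimum. Cebpb, which acts in myeloid gene control, was at 457 and 295 CPM. Spi1, which encodes PU.1, was at 374 and 427 CPM. The median log2 ratio of the list was -0.26, and -0.22 in monocytes.

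Complement genes lay on both sides. The median log2 ratio of the 10 measured genes was 0.33, with 4 genes higher and 2 lower past the margin. C2, a protease of the classical and lectin pathways, was at 40.6 and 75.8 CPM, with a ratio of 1.87 (1.38 to 2.57). C3, the central component, was at 62.8 and 122 CPM, but hepatocytes make it in quantity and B cell precursors held 58.8 and 168 CPM. Cd55, which breaks up C3 convertases on the cell surface, was at 47.5 and 133 CPM, with a ratio of 2.81 (2.14 to 3.73), and at 59.3 and 237 CPM in subgroups 1 and 2. In monocytes Cd55 stood at 4.17 and 4.82 CPM. Cfp, properdin, which stabilises the alternative pathway convertase, was at 818 and 1084 CPM. Vsig4 was among the lower ones.

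A few interferon-response genes were higher with the null mother. Gbp2, a guanylate-binding protein induced by interferon-γ, was at 19.9 and 50.5 CPM, and Ifi27l2a at 172 and 317 CPM. AW112010, an interferon-induced transcript, was at 112 and 212 CPM. Within subgroups 1 and 2 the ratios were 2.23, 3.55 and 2.07 for these 3 genes, and in male macrophages 1.56, 1.34 and 2.08. In monocytes Ifi27l2a was at 258 and 327 CPM. Of 17 measured genes on the list, 12 had a ratio above 1 and 3 were past the margin, with a median log2 ratio of 0.12, and with a common minimum 9 of 14 were above 1. Monocytes had a like tally, with 12 of 16 measured genes above 1, 3 past the margin and a median of 0.09. Restricted to subgroups 1 and 2, 12 of 13 were above 1 and the median was 0.26, where 1413 of all 2332 measured genes were above 1.

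Adhesion and island genes were alike. Vcam1 was at 1030 and 942 CPM, with a ratio of 0.915 (0.856 to 0.978), and at 1683 and 1884 CPM in subgroups 1 and 2. None of the 10 measured genes on the erythroblastic island list was past the margin, and their median log2 ratio was -0.18 in all macrophages and 0.08 in subgroups 1 and 2. Dnase2a, the lysosomal enzyme that digests the DNA of engulfed red cell nuclei, was at 181 and 144 CPM. Icam1, which binds leukocyte integrins, was the exception among adhesion genes at 37.5 and 69.3 CPM.

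Haem and iron genes also stayed close to 1. Hmox1 was at 3136 and 2650 CPM, with a ratio of 0.845 (0.813 to 0.878), and Slc40a1 at 1162 and 1087 CPM. Blvrb, biliverdin reductase B, was at 1187 and 1201 CPM. The ferritin genes Fth1 and Ftl1 were at 11848 and 9302 CPM and at 14885 and 12563 CPM. Of 19 measured genes, 3 were past the margin: Hpgds, at 123 and 76.5 CPM, was lower, and Trf and Cp, which hepatocytes secrete, were higher. The median log2 ratio was -0.02.

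Sterol genes were examined because the mothers differ in sterol 27-hydroxylase, whose product activates LXR. Apoe, an LXR target and the main apolipoprotein of macrophages, was at 15449 and 10141 CPM, with a ratio of 0.656 (0.645 to 0.668), and at 22213 and 16311 CPM in subgroups 1 and 2. In monocytes Apoe had a ratio of 0.674. Abca1, the LXR target that exports cholesterol, was at 248 and 169 CPM, with a ratio of 0.681 (0.590 to 0.787), and in subgroups 1 and 2 the ratio was 0.783. Abcg1 was at 122 and 105 CPM. Mylip, which encodes a ubiquitin ligase, was at 39.8 and 54.9 CPM, and Srebf1, which drives fatty acid synthesis, was at 12.3 and 27.1 CPM, below the common minimum. Over the LXR list 9 of 18 measured genes were above 1, and the median log2 ratio was -0.03.

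Npc1 and Lipa, which handle cholesterol in the lysosome, were lower. Npc1, which moves cholesterol out of lysosomes, was at 77.3 and 43.0 CPM, and Lipa, the lysosomal acid lipase, at 280 and 181 CPM. On the list of trafficking and storage 10 of 11 measured genes were under 1, with 3 past the margin (Npc1, Lipa and Apoe) and a median log2 ratio of -0.25. In subgroups 1 and 2 the median was -0.29, with 9 of 11 under 1 and Npc1 at 0.662. Monocytes had 10 of 12 measured genes of the list under 1, 1 past the margin, and a median of -0.19. The genes of cholesterol synthesis and uptake were low, with 10 of 26 measured. All 10 were above 1, but most lay below the common minimum and could be counted only if higher with the null mother, so no direction is read from this count. With a common minimum 2 genes were measured and 0 were past the margin. Hmgcs1 was at 16.8 and 35.0 CPM. Hepatocyte RNA was also higher with the null mother, monocytes held Hmgcs1 at 24.6 and 40.0 CPM, and none of the 26 was measured in subgroups 1 and 2. Their share in the difference was not tested.

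**Figure D4:**
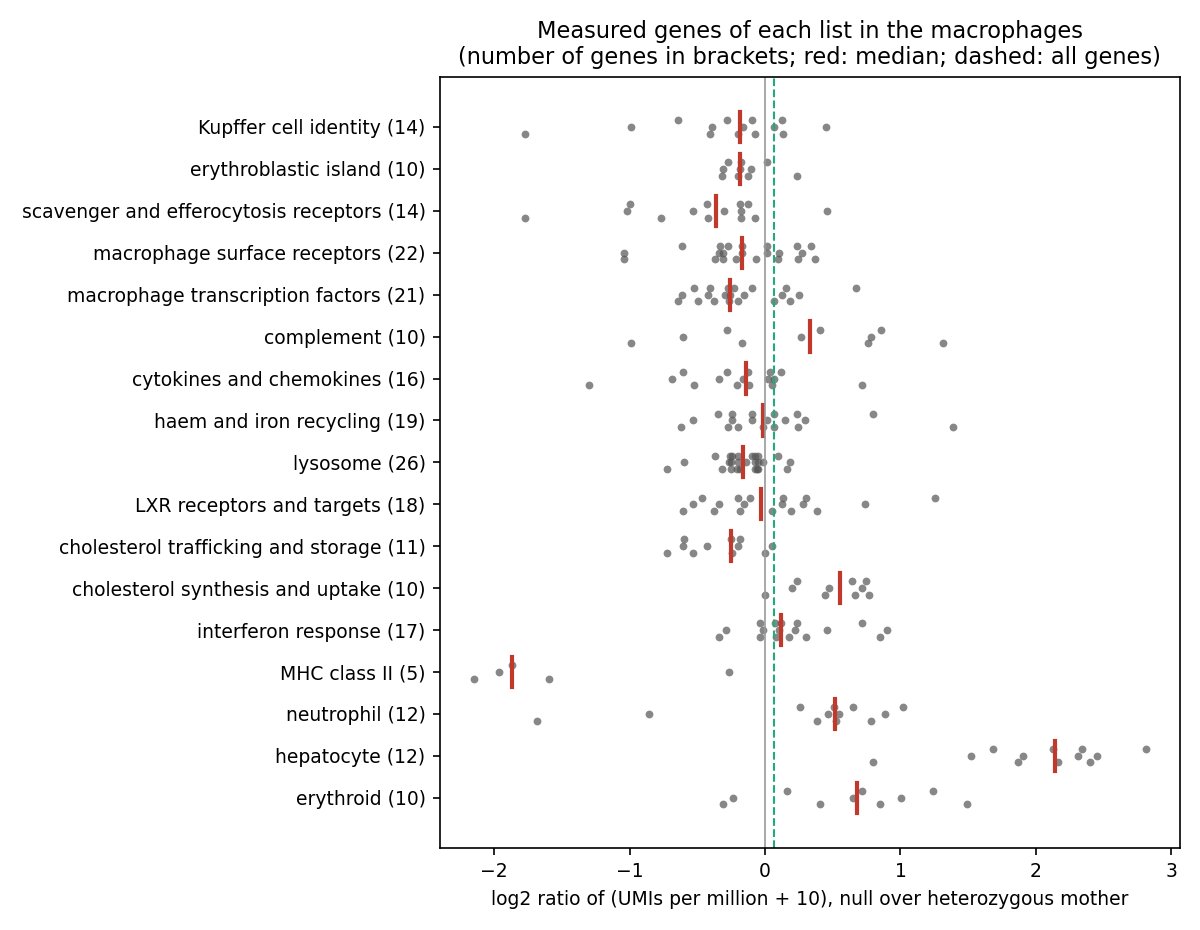
Log2 ratio of the level with the null over that with the heterozygous mother for the measured genes of each list in the macrophages, 1 point per gene, after adding 10 CPM. The red bar is the median of the list and the dashed line that of all 5097 measured genes, 0.06. The hepatocyte list lies at 2.14 and the class II list at -1.86. The erythroid list lies at 0.68, that of cholesterol synthesis and uptake at 0.56 and the neutrophil list at 0.52. The other lists lie between -0.36 and 0.33.

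Genes of other cell types moved with the comparison. All 12 measured genes of the hepatocyte list were higher past the margin with the null mother, with a median log2 ratio of 2.14. Alb was at 342 and 1848 CPM and Afp at 133 and 997 CPM. The same genes moved in cells that do not make them: Alb was at 371 and 2229 CPM in monocytes and at 890 and 3536 CPM in B cell precursors. In the macrophages 5 cells held 56.3% and 61.8% of the Alb UMIs. Of the 12 genes on the neutrophil list 4 were higher and 2 lower, and without called doublets the median, 0.52 in all macrophages, was -1.36. Their part in the other results was not tested, but the ratios in subgroups 1 and 2 are given with the genes above. The neutrophil list summed there to 1027 CPM with the heterozygous and 1233 CPM with the null mother. In subgroups 1 and 2 too, 6 of 8 measured hepatocyte genes were higher past the margin, with a median log2 ratio of 0.96. All 4 measured erythroid genes were above 1 there, with a median of 0.53, beside 0.68 in all macrophages. The erythroid list went the other way in monocytes and B cell precursors, with medians of -0.20 and -0.53. Of its measured genes, 3 of 9 and 6 of 10 were lower past the margin there, and 0 were higher.

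The class II genes show how few cells can decide a sum. Cd74, the chaperone of class II molecules, was at 284 and 56.3 CPM, and H2-Aa, H2-Ab1 and H2-Eb1 were lower by similar factors with the null mother. Yet Cd74 was found in 21 (7.89%) and 29 (7.59%) macrophages, and 5 cells held 89.8% and 75% of its UMIs. In subgroups 1 and 2 it was at 16 and 25 CPM, in the other direction. However, 0 of the 8 genes on the class II list reached the minimum there. After thinning, Cd74 was found in 3.50% and 1.15% of the cells of these subgroups, and without thinning in 3.83% and 5.21%. No direction is read from so few UMIs. Ctla2a, at 165 and 28.9 CPM the gene with the lowest log2 ratio of all, had 95.3% of its UMIs of the heterozygous mother in 5 cells. Clec4f was spread over 179 and 169 macrophages, with 14.2% and 12.8% of its UMIs in 5 cells.

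Haemoglobin separated the libraries at the limit of the rule. If the condition on haemoglobin is dropped, 276 cells of the heterozygous and 567 of the null mother meet the others. Of these, 10 (3.62%, 1.75 to 6.56) and 185 (32.6%, 28.8 to 36.7) had 15% or more of their UMIs from haemoglobin. The share was 2.43% and 35.4% without called doublets, 2.56% and 28.0% among male cells, and 3.18% and 35.2% among cells with 3000 or more other UMIs. Of all cells, 5470 and 2945 reached 15%, of which 1915 and 2031 had the 500 or more genes that the rule asks for. The library protocol included lysis of red cells.

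The haemoglobin-rich cells of the null mother also held Kupffer cell transcripts that the rule did not use. Outside haemoglobin, Cd5l was at 3043 CPM in them and at 2595 CPM in macrophages of the same library with under 1% haemoglobin. Clec4f was at 323 and 234 CPM, so Clec4f was below the 866 CPM of the heterozygous mother on both sides of the limit. Marco, at 4004 and 3374 CPM, and the median C1q count of 99 UMIs describe the rule, which these cells met but for haemoglobin. Of the 185, 11 were called doublets. Red cell transcripts other than haemoglobin came with it: Alas2, the red cell enzyme that starts haem synthesis, was at 927 CPM against 4.57 CPM. For each 10000 haemoglobin UMIs there were 18.1 UMIs of Alas2 in these cells and 19.0 in red cells of the library without C1q UMIs. Of the macrophages inside the rule, 9.77% and 25.9% had 1% or more haemoglobin, against 3.59% and 3.19% of monocytes and 3.88% and 2.78% of B cell precursors. For subgroups 1 and 2 the shares were 7.10% (3.84 to 11.8) and 10.9% (7.04 to 15.9), intervals that overlap, and 1.09% and 0.474% had 5% or more. Whether the red cell RNA lay inside the macrophages, on their surface or in the same droplet was not tested.

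**Figure D5:**
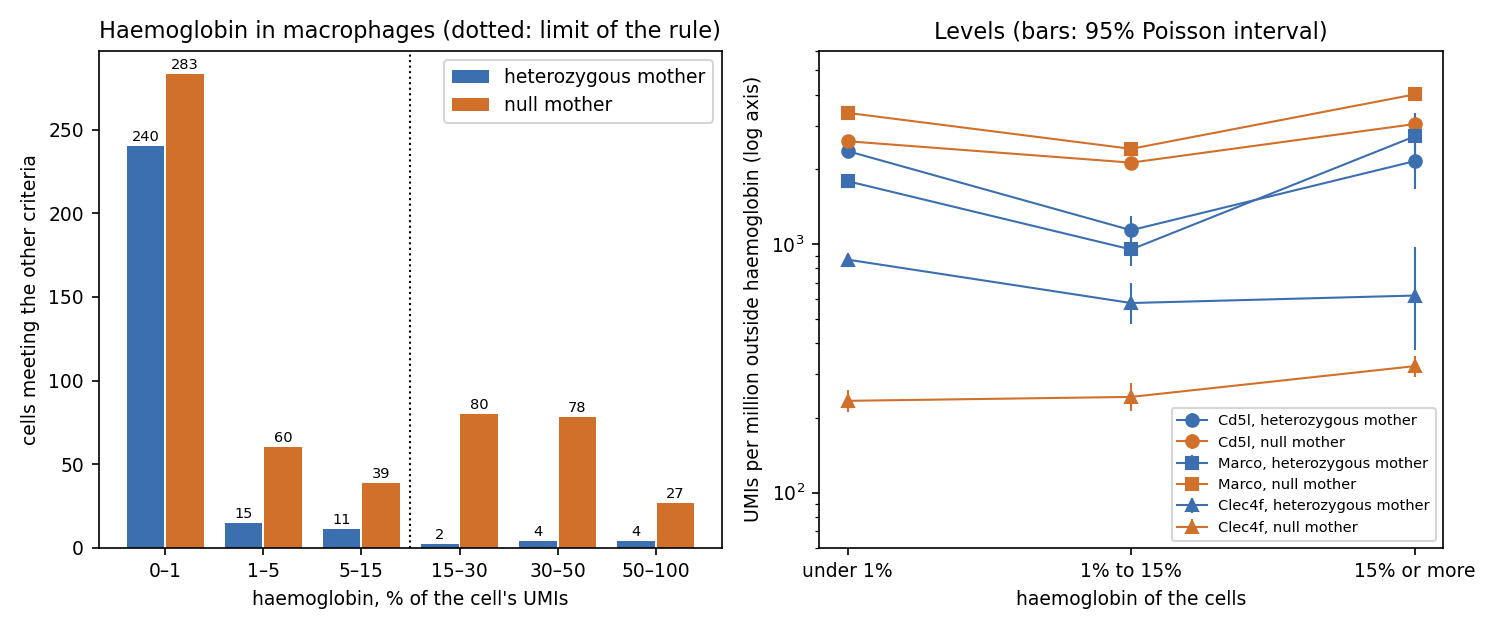
Left, number of cells that met every other condition of the rule, by the share of haemoglobin in their UMIs, with the limit of 15% dotted. Right, levels of Cd5l, Marco and Clec4f as CPM outside haemoglobin in 3 classes of haemoglobin share, with 95% Poisson intervals. The null mother has 185 cells right of the limit and the heterozygous mother 10, and the order of the libraries in Clec4f is the same in each class.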

How the data were processed

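The deposited values are raw UMI counts, as whole numbers, for 31053 genes in 43351 cells, with no normalization and no cell under 500 UMIs. Per the submitters' processing notes, Cell Ranger 3.0.0, Seurat 4.3.0 and the build mm10 were used, and their settings and order are not given in the sources used here. Cell types of the authors were not used here. Libraries were assigned by the name in the deposited cell annotation, and 0 columns were left without a sample.

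Counts were summed over the macrophages of each library and divided by their total (CPM), a gene was measured when the library with its higher CPM held 50 or more UMIs, and the margins were 1.5 times between mothers and 2 times against other cells. Log2 ratios add 10 CPM. Ratios and levels have exact Poisson and shares exact Clopper-Pearson intervals at 95%, and PCR or sampling of litters is outside them. A level of 0 still allows somewhat more than 3 UMIs at the upper limit of the exact interval. Library depth was 97894048 and 118054232 UMIs at E18.5. B cell precursors were cells with 3 or more UMIs over Cd79a, Vpreb3 and Ebf1 and 0 C1q UMIs. Sex was called from Xist and Y-linked UMIs. Doublets were called by Scrublet in scanpy 1.11.5. Subgroups came from 2000 variable genes without haemoglobin, mitochondrial, ribosomal, Xist and Y-linked genes, 20 principal components, 15 neighbours and Leiden clustering (leidenalg 0.10.2) at a resolution of 0.5, seed 1. Python 3.11.15, numpy 2.4.6, scipy 1.17.1 and pandas 2.3.3 were used, and the calls were tested on simulated data.

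Named genes are the 10 highest and 10 lowest log2 ratios among all measured genes and among those 2 times above other cells, the 10 farthest in the comparisons with E14.5 and monocytes, and of each list up to 8 of the highest level and the 4 farthest ratios. Haemoglobin, Xist, Y-linked, mitochondrial and predicted genes were left out of the ranking. A few further genes that the rule names are not reported here. The motifs and the 4 genes printed with sequence were chosen after values were seen. The macrophages, the lists and the tests were chosen with earlier results of these data known. Alternatives varied the scaling, pseudocount, minimum, weighting, doublets, sex, depth and the rule itself.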

Additional observations from a re-analysis of the deposited data

How the results depend on the processing

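With 1 library per group, precision rests on counts alone: 266 and 382 macrophages, and for genes near the minimum of 50 UMIs the intervals span more than 1.5 times. No paired analysis was possible because each group is 1 library and no test was made. Leaving out a library would leave no comparison.

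Of 968 values of named genes under 18 alternatives, 705 stayed within their counting interval. Of genes past the margin, 3 changed sign, each in subgroups 1 and 2: Ctla2a (log2 ratio 0.46), Cd74 (0.43) and H2-Aa (0.0943). No gene of the class II list reached the minimum in these subgroups, so no direction is read there from Cd74 and H2-Aa. Of genes within the margin, 11 changed sign under 1 or more alternatives (46 values), Vcam1 and Timd4 among them. The numbers of higher and lower genes were 414 and 129 of 5097, but 160 and 129 of 3809 with the same minimum CPM in both libraries, 1405 and 673 with a minimum of 10 UMIs, 79 and 21 with 200 UMIs, 188 and 55 with cells thinned to 3000 UMIs, 164 and 74 in subgroups 1 and 2, and 721 and 275 with equal weights for subgroups 1 to 5. Higher genes numbered 720 by means over cells, 166 in male cells and 165 in cells with few neutrophil and hepatocyte UMIs.

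The median of the Kupffer list, -0.18, was -0.0195 without called doublets, -0.00495 in subgroups 1 and 2, 0.0829 in male cells and 0.0730 with equal weights. That of the scavenger list, -0.36, was -0.0941 in male cells and 0.00541 in cells with few neutrophil and hepatocyte UMIs. For LXR targets it was 0.22 in male cells, for interferon response 0.63 in cells with few such UMIs, and for haem and iron recycling 0.21 with equal weights. For class II genes, at -1.86, it was -2.31 with a pseudocount of 1 CPM, -1.05 by means over cells, -1.40 without the 5% of cells with most UMIs, -1.25 without doublets, -3.44 in male cells, -0.79 with few neutrophil and hepatocyte UMIs, -2.80 with 20 or more C1q UMIs, -1.26 with under 5% haemoglobin and -1.18 with equal weights. The neutrophil list turned to -1.36 without doublets, -0.89 with few such UMIs, -0.12 thinned and -0.35 with equal weights, and the mesenchyme list, 1.53, to -0.53 with equal weights. The cause of these shifts was not tested.

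The ratio of shares, 1.48, was 2.12 with no limit on haemoglobin, 1.24 among cells with 500 genes and under 15% haemoglobin, 1.83 thinned and 1.19 for subgroups 1 and 2. In subgroups 1 and 2, 362 of 2653 genes lay below E14.5 and 1226 of 7169 below monocytes. At a resolution of 1 there were 12 subgroups. The alternatives with subgroups 1 and 2, with equal weights and with a common minimum CPM were chosen after seeing the data.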

Other observations

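Other gene groups in the macrophages were near the median of all genes or rested on few genes. Of 26 measured lysosome genes, 23 had a ratio of null over heterozygous mother under 1 with a median log2 ratio of -0.16, but in subgroups 1 and 2 the median was 0.03 with 13 of 25 above 1. Ctsb and Lgmn, proteases of the lysosome, were at 3298 and 3134 CPM and at 1126 and 1067 CPM. Of 16 measured cytokine and chemokine genes, 3 were lower by 1.5 or more times, among them Il1b, which encodes interleukin-1β, at 75 and 45.8 CPM, and Pf4, platelet factor 4, at 744 and 459 CPM. Pf4 had a ratio of 0.678 in subgroups 1 and 2 and of 0.594 in male macrophages.

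A few single genes stood farther from 1. Hilpda, a lipid droplet protein that is induced by low oxygen, was at 78.1 and 28.5 CPM, with a ratio of 0.365 (0.269 to 0.495), and of 0.225 in subgroups 1 and 2. Hk2, the glycolytic enzyme hexokinase 2, was at 81.2 and 45.1 CPM, although the 13 measured genes of glycolysis and hypoxia had a median log2 ratio of 0.04. Fkbp5, a target of the glucocorticoid receptor, was at 49.0 and 22.7 CPM, while the list of that receptor had a median of 0.15. In subgroups 1 and 2 the ratio of Fkbp5 was 0.340, but the gene fell short of the minimum there. The early response genes Ier3, Btg2 and Zfp36 were lower by 1.5 or more times, at 207 and 116, 273 and 165, and 183 and 119 CPM. Asb2, a subunit of a ubiquitin ligase, was at 72.8 and 131 CPM in the macrophages and near 0 in monocytes, at 0 and 0.268 CPM. The 10 genes with the highest log2 ratios of all, Afp, Fgg, Fgb, Alb, Apoa2, Ttr, Gc, Serpinc1, Vtn and Ahsg, are all hepatocyte genes, and of the 10 lowest, Retnlg (584 and 175 CPM) is a neutrophil and Igkc (44.4 and 13 CPM) a B cell gene.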
